A study of Mus musculus with 3 samples.

Results

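The insulin-like growth factor (IGF) family was examined in primary endothelial cells of the corpus cavernosum, the erectile tissue, of C57BL/6 mice. Its 10 genes here are the ligands Igf1 and Igf2, the receptors Igf1r and Igf2r, and the binding protein genes Igfbp2 to Igfbp7, taken by gene symbol with every probe whose transcript accession leads to them. They were read by 14 of the 39429 probes and are 10 of the 19751 genes that could be named. All cultures grew in M199 medium with fetal bovine serum, heparin and vascular endothelial growth factor A. The labels assign 1 array to high glucose (30 mmol) with an siRNA against Ninj1 (200 pmol), 1 to high glucose (30 mmol) and 1 to normal glucose (5 mmol), all at 48 h, with RNA of 3 numbered samples pooled for every array, and they mention neither animal age nor a control siRNA. With 1 array per label no difference has a replicate check, no test was run, and "higher" and "lower" describe these arrays only.

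IGF1 and IGF2 are secreted peptides that act through the IGF1 receptor, a tyrosine kinase that signals mainly through insulin receptor substrates, PI3K and AKT and, with AKT active, keeps FoxO transcription factors out of the nucleus. The IGF2 receptor, also the mannose 6-phosphate receptor, has no kinase and removes IGF2 from the cell surface. Binding proteins hold most IGF outside cells, and proteases that cut them release it. In vessels IGF1 is known as a growth and survival factor of endothelial and smooth muscle cells, and much of it comes from stromal cells and macrophages.

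Ninj1, the target of the siRNA, does not bear out the labels. Its signal was 25539 on the siRNA-labelled array, 16291 on the high-glucose-labelled array and 20413 on the normal-glucose-labelled array, from 1 probe with 1 spot, and the files are named as if the siRNA and high-glucose arrays were swapped. Groups are therefore called by their labels, and a direction belongs to the label and is not that of a checked treatment. Between 67.0% and 70.6% of probes were well above background, and no spot was saturated. Differences below are on the log2 scale after each array's 75th percentile of signal was subtracted, a step that takes 0.23 off every difference between the siRNA-labelled and high-glucose-labelled arrays. Repeated spots of 1 probe gave an SD for a difference of 2 spots of 0.22 at signals under 100, 0.09 from 100 to 1000 and 0.07 above, which covers spot noise only, with no culture or hybridisation error.

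Checked against its markers, the labelled cell type was only partly seen. Of 13 endothelial markers 10 were well above background on at least 1 array, while Tie1, Emcn and Erg were on none. Pecam1, Vwf, Tek and Cldn5 gave signals under 100 on every array. Kdr and Egfl7 gave most of the unscaled sum, with 8278 and 5967 on the siRNA-labelled array against 7298 and 3194 on the high-glucose-labelled array. Scaled, Kdr differed by -0.05 (0.45 on its other probe) and Egfl7 by 0.67. Eng, Cdh5, Flt1 and Esam were well above background on every array. They gave 1500, 618, 444 and 327 on the siRNA-labelled array and 2242, 185, 248 and 126 on the high-glucose-labelled array. After scaling, 4 of the 8 markers measured on both arrays were higher under the siRNA label and 4 lower. The unscaled sum of the 10 endothelial markers was 17259 on the siRNA-labelled array, 13495 on the high-glucose-labelled array and 13730 on the normal-glucose-labelled array. All 10 fibroblast markers were read, with sums of 743153, 918032 and 931085 in the same order of labels. The sums were 28960, 65143 and 71533 for 9 of 10 smooth muscle and pericyte markers (Myh11 was not well above background) and 21267, 10658 and 11205 for 7 of 8 macrophage markers (Cd68 was not analysed here). Most of the macrophage sum under the siRNA label came from Cd14, with 16711 on the siRNA-labelled array and 4989 on the high-glucose-labelled array. After scaling, Adgre1, Lyz2 and Ptprc, the last of them dim, were 4.18-fold, 4.13-fold and 2.38-fold lower than under high glucose. Csf1r, Mrc1 and Aif1 differed by 0.11, 0.01 and -0.43 on the log2 scale, with other Csf1r probes at 0.19 and -0.16. Probes differ in brightness, so these sums give no cell shares.

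Across the family, Igf1 and Igfbp7 stood far below their level on the other arrays where the label names the siRNA, while both receptors and most binding proteins differed by less than 2-fold. Between the siRNA-labelled and high-glucose-labelled arrays, 2 of the 10 genes were at least 2-fold lower, where 8.21% of 15624 genes compared were, and 0 of 10 were at least 2-fold higher, where 6.52% of genes were. The 9 members measured on both arrays had a median difference of -0.41, with 7 below 0 and 2 above. Those below 0 include Igf2r at -0.07 and Igfbp2 at -0.05, which were 0.15 and 0.18 before scaling and have no settled direction. Over 14520 measured genes the median was 0.01, and 49.0% were below 0. At 1.5-fold, Igf1, Igfbp7, Igfbp3 and Igfbp6 were lower, where 15.7% of genes were, bounds included. A bound for Igf2 brings the count to 5 but depends on the background correction and sets no direction. At that threshold 0 members were higher, but Igfbp5, at 1.498-fold higher, fell just short. The share of all genes at least 1.5-fold higher was not computed, and 14.6% were as high as Igfbp5. Each member's signal on each array is shown in the plot of signals by probe.

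**Figure D1:**
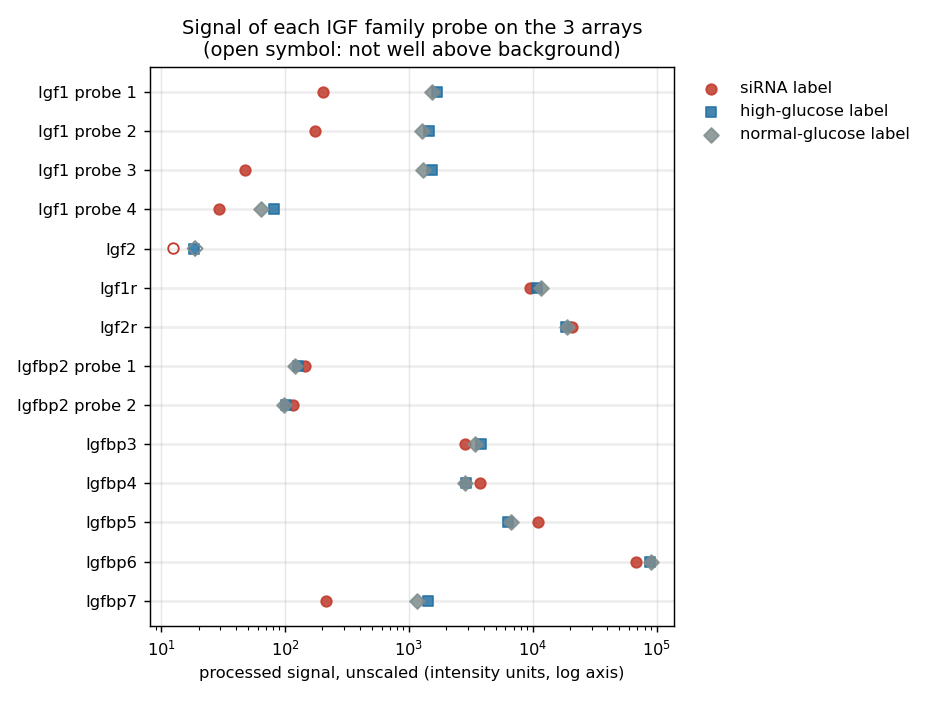
Unscaled processed signal (log axis, intensity units) of the 14 probes of the IGF family, with a red circle for the siRNA-labelled array, a blue square for the high-glucose-labelled array and a grey diamond for the normal-glucose-labelled array, and open symbols where a probe was not well above background. The 4 Igf1 probes and the Igfbp7 probe have their red circle to the left of the other symbols, and probes of different genes cannot be set against each other.

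Igf1, the growth factor itself, was read by 4 probes designed on the same transcript accession. The brightest gave 201 on the siRNA-labelled array, 1692 on the high-glucose-labelled array and 1547 on the normal-glucose-labelled array. The siRNA-labelled array stood alone at the low end, with the other arrays near each other. After scaling it was 9.87-fold lower than the high-glucose-labelled array (-3.30) and 8.77-fold lower than the normal-glucose-labelled array (-3.13). These comparisons share the siRNA-labelled array and are not independent of each other.

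The other Igf1 probes had the same order but not the same size. The second gave 175 on the siRNA-labelled array, 1438 on the high-glucose-labelled array and 1278 on the normal-glucose-labelled array, a difference of -3.26 between siRNA and high glucose. The third probe gave 47.3, 1543 and 1295 in the same order of labels, a difference of -5.25 between siRNA and high glucose. The dimmest gave 29.2, 80.8 and 64.3, a difference of -1.70. Each of these differences is at least 7.69 times the SD of a difference of 2 spots of that brightness. The probes are different reads of 1 gene in the same RNA, not replicates, and 21 RefSeq transcripts are listed for Igf1, so the sizes need not match.

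Against normal glucose, the high-glucose-labelled array was slightly higher on each Igf1 probe, by 0.17, 0.21, 0.29 and 0.37 in the order in which the probes are given above. The first 3 exceed 2 SD of spot noise and the dimmest does not. Of all genes compared, 8.50% had a difference as high as that of the brightest Igf1 probe, so it is no rare value on these arrays.

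The 250 bases before the start site of Igf1 are shown because Igf1 had the lowest value of the family. The window lies at chr10:87860861-87861110 on GRCm38.p6, plus strand, with sequence from RefSeq's promoter table, in which all 10 members have at least 1 entry. Windows were searched on both strands for the TATA box in the form TATAAA, for the CCAAT box in those letters, and for the GC box in the form GGGCGG. The AP-1 element was sought as TGANTCA, the FoxO element as GTAAACA and the TEAD element as GGAATG, and capitals mark the matches. A match to letters is a description of the sequence and shows no binding.
Igf1: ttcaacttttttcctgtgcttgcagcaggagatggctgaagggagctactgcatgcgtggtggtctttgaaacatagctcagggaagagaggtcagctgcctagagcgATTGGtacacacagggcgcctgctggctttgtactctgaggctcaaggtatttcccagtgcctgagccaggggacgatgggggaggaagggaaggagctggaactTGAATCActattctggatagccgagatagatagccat
The Igf1 window holds a CCAAT box on the opposite strand, starting 142 bases before the start site. A match to the searched AP-1 form TGANTCA, with A at the open base N, starts 37 bases before it. Of 32851 promoter windows of this length, 33.8% hold a CCAAT box and 6.75% a match to that form with any base at N. It has none of the other 4 motifs.

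Igf2, the fetal growth factor of the family, whose gene is imprinted, could hardly be read. Its single probe gave 12.5 on the siRNA-labelled array, 18.4 on the high-glucose-labelled array and 18.8 on the normal-glucose-labelled array, and only the high-glucose-labelled array was marked well above background. The difference between the siRNA and high-glucose labels was a bound of -0.78 on the log2 scale, which normexp background correction moved to -0.23. This close to background it sets no direction for the gene. No difference can be given between the siRNA and normal-glucose labels, since neither array was well above background.

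Both receptors were bright on every array and differed little. Igf1r, the signalling receptor, gave 9447 on the siRNA-labelled array, 10727 on the high-glucose-labelled array and 11668 on the normal-glucose-labelled array. It was lowest under the siRNA label and highest under normal glucose, by 1.33-fold between the siRNA and high-glucose labels (-0.41) and by -0.08 between the labels for high and normal glucose. The first difference is 5.97 times the SD of spot noise, the other 1.16 times. Of all genes compared, 22.1% had a difference from high glucose at least as low under the siRNA label.

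Igf2r, which clears IGF2, was the most securely read member, with 10 spots printed and 8, 9 and 9 used on the siRNA-labelled, high-glucose-labelled and normal-glucose-labelled arrays. Its spots ran from 19413 to 21948 with a median of 20833 on the siRNA-labelled array, from 17917 to 19435 with a median of 18532 on the high-glucose-labelled array, and from 18446 to 19866 with a median of 18899 on the normal-glucose-labelled array. The unscaled spots under the siRNA label overlap the high-glucose spots only between 19413 and 19435 and otherwise lie above them. After scaling the sign turns, with a difference of -0.07 ± 0.02 (SE over spots) between the siRNA and high-glucose labels and 0.01 ± 0.02 between the labels for high and normal glucose. Its difference is smaller than the 0.23 that the scaling takes off, and no direction is given.

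**Figure D2:**
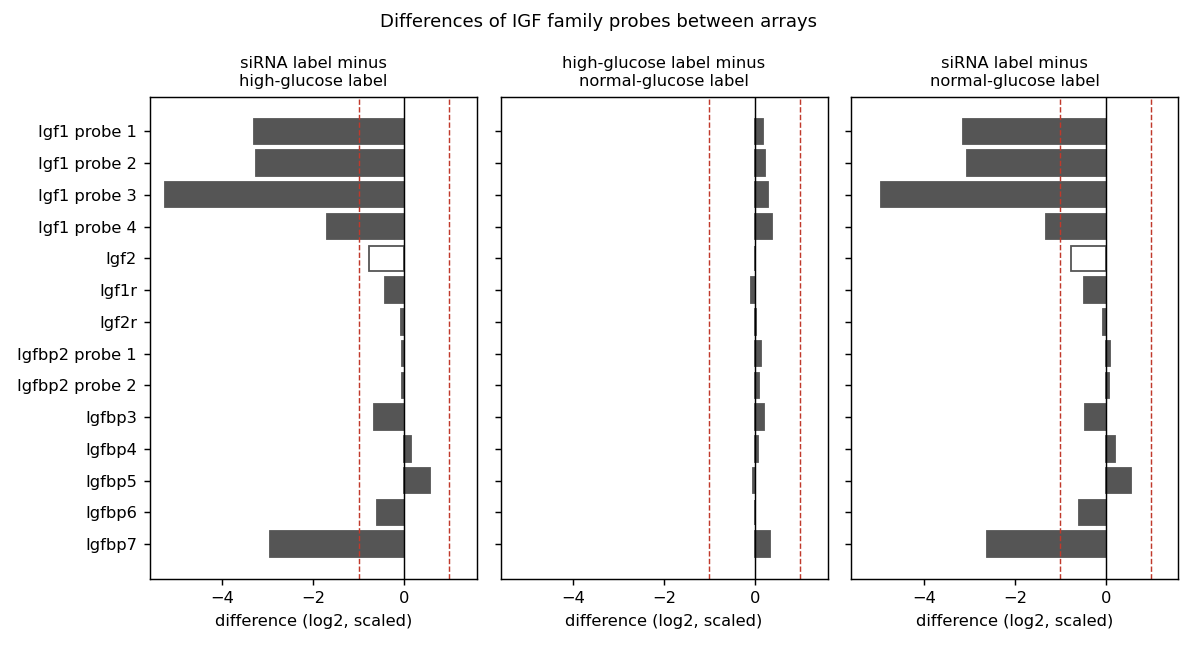
Scaled log2 differences of the 14 probes for the siRNA label minus the high-glucose label, the high-glucose label minus the normal-glucose label, and the siRNA label minus the normal-glucose label, with dashed lines at 2-fold and an open bar for Igf2, which was not well above background on at least 1 array of each pair. Igf1 and Igfbp7 pass 2-fold downward in the outer panels, and all bars of the middle panel lie between -0.08 and 0.37.

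Igfbp7, a binding protein with low affinity for IGFs that is expressed in vessel walls, had the second largest difference of the family. It gave 213 on the siRNA-labelled array, 1417 on the high-glucose-labelled array and 1156 on the normal-glucose-labelled array. As with Igf1, the siRNA-labelled array stood alone at the low end. It was 7.78-fold lower than the high-glucose-labelled array (-2.96) and 6.17-fold lower than the normal-glucose-labelled array (-2.62). The high-glucose-labelled array was 1.26-fold higher than the normal-glucose-labelled array (0.34), the highest value of the family in that comparison by each gene's brightest probe. The single Igfbp7 probe was designed on 1 of 2 RefSeq transcripts of the gene, so what it shows may not hold for the other transcript.

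Among all genes with a difference between the siRNA and high-glucose labels, 0.391% were as low as Igf1 and 0.690% as low as Igfbp7. At the other end, Igfbp5 was the highest member and no member reached 2-fold upward.

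Igfbp5 and Igfbp4 were the members above 0. Igfbp5, a binding protein that also attaches to extracellular matrix, gave 11109 on the siRNA-labelled array, 6336 on the high-glucose-labelled array and 6662 on the normal-glucose-labelled array. It was highest under the siRNA label, by 0.58 over the high-glucose label, a size that 14.6% of genes reached or passed. Igfbp4, which PAPP-A cuts when IGF is bound, gave 3727 on the siRNA-labelled array, 2875 on the high-glucose-labelled array and 2829 on the normal-glucose-labelled array. Its difference of 0.15 between the siRNA and high-glucose labels is 2.15 times the SD of spot noise, and smaller than the 0.23 that the scaling removes.

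Igfbp3 and Igfbp6 were lower under the siRNA label by similar amounts. Igfbp3, the main carrier of IGF in blood, gave 2819 on the siRNA-labelled array, 3806 on the high-glucose-labelled array and 3406 on the normal-glucose-labelled array. It was 1.58-fold lower under the siRNA label than under high glucose (-0.66), and 0.20 higher under the high-glucose label than under normal glucose. Igfbp6, which prefers IGF2 over IGF1, gave 67917 on the siRNA-labelled array, 87552 on the high-glucose-labelled array and 89306 on the normal-glucose-labelled array. It was 1.51-fold lower under the siRNA label than under high glucose (-0.59), while the other arrays differed by 0.01.

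Igfbp2, another high-affinity binding protein, was dim on both of its probes. The brighter gave 145 on the siRNA-labelled array, 128 on the high-glucose-labelled array and 119.8 on the normal-glucose-labelled array, and the other gave 116, 102 and 97.7 in the same order. Their scaled differences between the siRNA and high-glucose labels were -0.05 and -0.03, inside spot noise, and both probes were higher under the siRNA label before scaling. Igfbp2 thus showed no difference that these arrays can resolve.

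The windows of Igfbp7 and Igfbp5 are shown as those of the binding protein genes with the lowest and the highest value. That of Igfbp7 lies at chr5:77408046-77408295 and that of Igfbp5 at chr1:72874866-72875115, both on the minus strand of GRCm38.p6, and capitals again mark matches.
Igfbp7: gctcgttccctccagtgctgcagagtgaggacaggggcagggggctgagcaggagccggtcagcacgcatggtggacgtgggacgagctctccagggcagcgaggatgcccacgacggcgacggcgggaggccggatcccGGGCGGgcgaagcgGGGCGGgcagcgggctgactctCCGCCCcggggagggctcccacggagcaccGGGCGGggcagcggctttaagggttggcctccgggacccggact
Igfbp5: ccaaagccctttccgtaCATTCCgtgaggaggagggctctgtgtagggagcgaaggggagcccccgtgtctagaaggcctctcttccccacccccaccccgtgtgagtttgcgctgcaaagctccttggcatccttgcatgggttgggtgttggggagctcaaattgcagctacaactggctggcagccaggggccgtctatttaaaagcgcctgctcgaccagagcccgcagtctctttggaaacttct
The Igfbp7 window holds 4 GC boxes, starting 110, 96, 74 and 44 bases before the start site, and none of the other motifs. The Igfbp5 window holds 1 TEAD match, starting 233 bases before the start site, and no GC box. Of all windows, 32.7% hold a GC box and 12.6% a TEAD match. GC boxes also occur in windows of Igf1r (2), Igf2r (3), Igfbp2 (3 in 1 of its windows) and Igf2 (1 and 2 in separate windows).

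**Figure D3:**
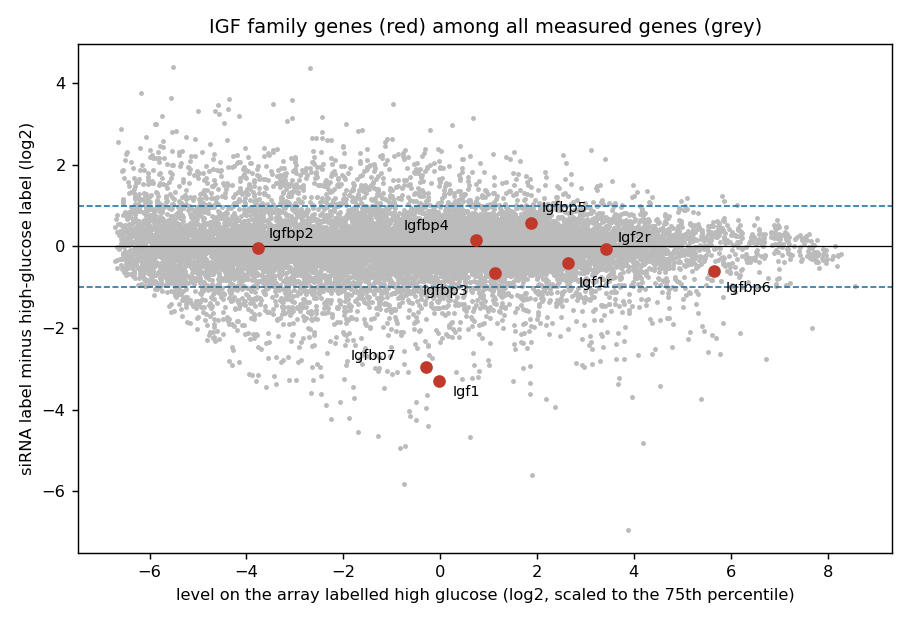
Difference between the siRNA and high-glucose labels (log2) against the scaled level on the high-glucose-labelled array for 14520 measured genes in grey and the 9 measured IGF family genes in red, with dashed lines at 2-fold. Igf1 at -3.30 and Igfbp7 at -2.96 lie near the lower edge of the cloud, and the other 7 lie between -0.66 and 0.58.

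Between the high-glucose-labelled and normal-glucose-labelled arrays, 0 of the 10 members were at least 2-fold higher, where 0.816% of 15081 genes were, and 0 were at least 2-fold lower, where 0.69% were. The 9 measured members lay between -0.08 and 0.34, with 7 above 0, while 56.0% of 14490 measured genes were below 0. Of 13 probes measured on both arrays 8 differed by at most 2 SD of spot noise. The 5 beyond were 3 of Igf1, which read the same RNA, and those of Igfbp3 and Igfbp7, all higher under the high-glucose label. The share of all probes beyond 2 SD was not computed. Set against the normal-glucose-labelled array, the siRNA-labelled array was at least 2-fold lower for Igf1 and Igfbp7 (7.93% of 15583 genes were) and at least 2-fold higher for 0 members (6.35% of genes).

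Genes that set how much IGF is free differed in both directions between the siRNA and high-glucose labels. Of 10 such genes 7 were above background on at least 1 array, and Igfbp1, Igfals, which encodes the acid-labile subunit of the serum IGF complex, and Adam28 were not. Of the 6 measured on both arrays 3 were at least 2-fold lower and 1 at least 2-fold higher, where 8.21% of all genes compared were lower and 6.52% higher by as much. Pappa, encoding the protease that cuts IGFBP4, gave 809.8 on the siRNA-labelled array, 1708 on the high-glucose-labelled array and 1838 on the normal-glucose-labelled array, and was 2.47-fold lower under the siRNA label than under high glucose. Pappa2, a related protease, was 2.12-fold lower. The stanniocalcins, which inhibit PAPP-A, went opposite ways: Stc2 was 2.83-fold lower and Stc1, dim on all arrays, 2.33-fold higher.

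Signalling genes downstream of the receptors differed less than Igf1, which is the lowest member, but the receptor-proximal median was close to the family's -0.41. Of 14 receptor-proximal genes 1 was at least 2-fold lower and 0 higher, with a median of -0.41, a count near the 8.21% of all genes that were lower (6.52% were higher). That gene was Grb14, an adaptor that inhibits the insulin receptor, at 4.44-fold lower under the siRNA label than under high glucose. Grb14 gave 2165 on the siRNA-labelled array, 8218 on the high-glucose-labelled array and 8909.7 on the normal-glucose-labelled array. Another probe of Grb2 was 2.02-fold lower, against 1.59-fold for the brightest Grb2 probe, which stands for the gene in the count. Of 22 PI3K, AKT and FoxO genes 2 were at least 2-fold lower and 0 higher, with a median of -0.22, which is also near that share of 8.21%. They were Inpp5d, a lipid phosphatase of blood cells, at 2.39-fold, and the transcription factor Foxo4 at 2.22-fold, both with signals near or under 100. None of 8 growth hormone axis genes passed 2-fold, the largest difference being that of Stat5b, a transcription factor that drives Igf1 in liver, at -0.85.

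Among 18 genes known as FoxO targets, 3 were at least 2-fold lower and 1 at least 2-fold higher under the siRNA label than under high glucose. In all, 14 were below 0, with a median of -0.46. Fbxo32, at 1.998-fold lower, fell just short of 2-fold. Over all genes 8.21% were at least 2-fold lower, 6.52% at least 2-fold higher and 49.0% below 0. Pdk4, a kinase that holds back pyruvate oxidation, gave 389 on the siRNA-labelled array, 1095 on the high-glucose-labelled array and 1142 on the normal-glucose-labelled array, a 3.29-fold lower value under the siRNA label than under high glucose. Pik3ip1, an inhibitor of PI3K, was 2.86-fold lower and the stress gene Sesn1 2.18-fold lower. Bcl2l11, encoding the cell death protein BIM, was 2.69-fold higher. Irs2 and Insr, which are in this list and in the receptor-proximal one, differed by -0.46 and -0.61, with other Insr probes at -0.22 and 0.08.

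Imprinted growth genes and the IGF2 mRNA-binding proteins split both ways, with a median of 0.08. Compared with high glucose, the siRNA label had 2 of 9 at least 2-fold higher, and 2 others were at least 2-fold lower, against 6.52% higher and 8.21% lower over all genes. Mest, an imprinted hydrolase gene, gave 290.4 on the siRNA-labelled array, 2368 on the high-glucose-labelled array and 2392 on the normal-glucose-labelled array, 9.54-fold lower under the siRNA label than under high glucose. Cdkn1c, the imprinted cell cycle inhibitor p57, was 3.97-fold lower. Igf2bp1, an RNA-binding protein of the fetal period, was dim and 3.02-fold higher. Plagl1, an imprinted zinc finger gene, was 2.86-fold higher on its brightest probe, and its other probes differed by 1.53, 0.67 and -0.21. The plot of differences by list sets these groups beside the family.

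**Figure D4:**
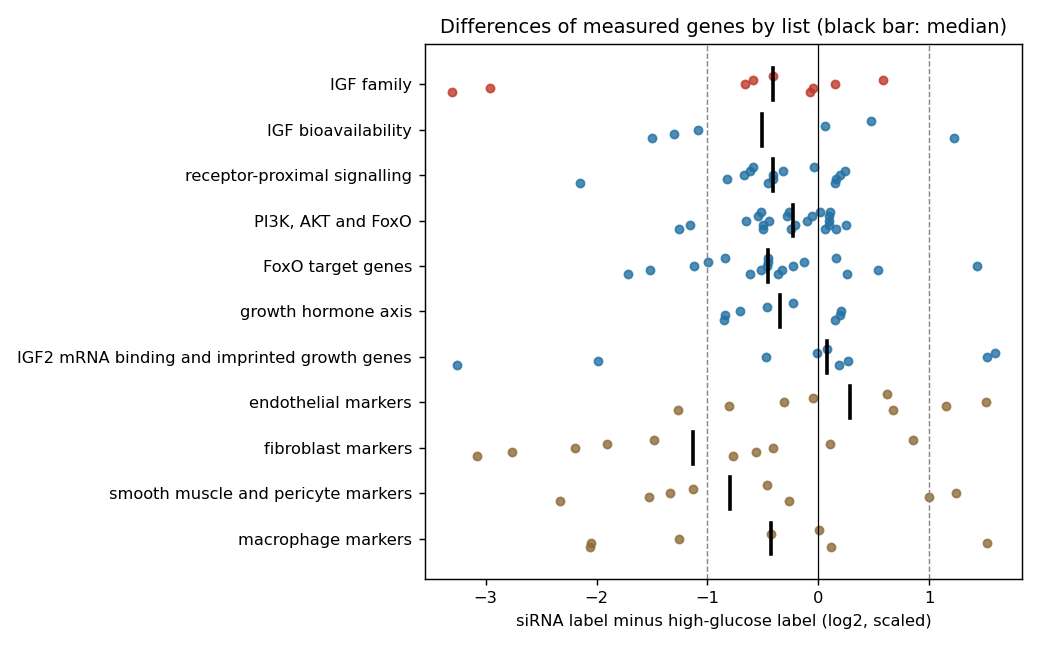
Scaled log2 differences between the siRNA and high-glucose labels for each measured gene of the IGF family (red), of related pathway lists (blue) and of cell type marker lists (brown), with a black bar at each list's median and dashed lines at 2-fold. The family's median of -0.41 lies close to those of several lists, among them the receptor-proximal, FoxO target and macrophage marker lists. It lies above the median of fibroblast markers at -1.13.

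Cell type markers also differed in the comparison that set apart Igf1 and Igfbp7. Between the siRNA and high-glucose labels, 5 of 10 fibroblast markers were at least 2-fold lower and 0 higher (median -1.13), as were 4 of 9 smooth muscle and pericyte markers with 1 higher (median -0.79 over the 8 measured), 3 of 7 macrophage markers with 1 higher (median -0.43) and 3 of 10 endothelial markers with 2 higher (median 0.29 over the 8 measured). Over all genes 8.21% were at least 2-fold lower and 6.52% higher. Kcnj8, of the smooth muscle and pericyte list, was 1.997-fold higher and fell just short of 2-fold. The part of these markers in the values of Igf1 and Igfbp7 was not tested. In pooled RNA of a culture, fewer cells of a type and less RNA per cell cannot be told apart.

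The genes most like Igf1 over the 3 arrays, by distance between scaled values centred on each gene's mean, were Adamtsl1 (0.08), Clstn2 (0.10), Spon1 (0.10) and Mest (0.10), out of 14358 genes well above background on all arrays. Those most like Igfbp5 were Hyal3, Abhd2, Arntl and Gprc5d, all within 0.01. With 3 arrays, and 2 of them nearly alike, such likeness is close to a single difference and many genes share it.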

How the data were processed

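Cy3-labelled RNA was hybridised to 3 arrays of pooled RNA, per the labels. Per the file headers, Agilent Feature Extraction 11.0.1.1 made the background-subtracted processed intensity of each spot, on 1 slide and in 1 scan. The series table that the authors deposited holds linear intensity too.

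Outlier spots were dropped, log2 signals averaged per probe, and the 75th percentile of each array subtracted. A probe counts as well above background if at least 50% of its spots carry that mark. If this is true of 1 array of a pair, the difference is a bound, set against the dim array's lowest well-measured value or the dim probe's own, whichever is higher. Probe names come from unversioned accessions in the RefSeq gene table of GRCm38.p6 (26055 of 39429 probes, 66.1%). The array design is annotated on mm9, so no probe coordinates are given. The brightest probe well above background anywhere stands for its gene. Named genes are the 10 members, per pathway list up to 4 genes past 2-fold in order of size (else the 1 of greatest difference), and the 4 genes most like the highest and lowest member. A few more are named as cell type markers, as genes in more than 1 list, for another probe past 2-fold or for falling just short of 2-fold. Members and lists were chosen with earlier results of these data known. The procedure was run on simulated data with spot noise only, changes past 2-fold and no probes below background. That run cannot judge bounds, culture or hybridisation error, or swapped labels. Alternatives were other scalings (quantile, cyclic loess, median), normexp in limma 3.58.1 on median spot signals with offset 50, the series table, other filters on dim probes, probe means, other fold thresholds (1.5 and 3), and swapping the 2 high-glucose arrays. Only 1 array per label limits the precision.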

Additional observations from a re-analysis of the deposited data

How the results depend on the processing

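With the 2 high-glucose arrays exchanged, the family's median became 0.41 for siRNA minus high glucose, -0.46 for high glucose minus normal glucose and 0.065 for siRNA minus normal glucose. Members at least 2-fold higher in the first comparison became 2, and those lower became 0, 2 and 0 in the 3 comparisons in that order. Igf1 and Igfbp7 became 3.30 and 2.96 in the first comparison and 0.17 and 0.34 in the last. All of this follows from the exchange itself. With a threshold of 1.5-fold, 5 members were lower between the siRNA and high-glucose labels (15.7% of all genes) and 0 were higher. The 5 include Igf2 by a bound of -0.78, which was -0.23 under normexp and so short of 1.5-fold. Igfbp6 at 1.51-fold lower was just inside the threshold and Igfbp5 at 1.498-fold higher just short of it. Igf1r at 1.33-fold lower was outside. With no filter on dim probes the median was -0.50, because Igf2 then counts as measured.

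Over the 8 other settings, Igf1 lay between -3.38 and -2.97 and Igfbp7 between -2.96 and -2.72 for siRNA minus high glucose, and both stayed at least 2-fold lower. Of 229 member values 3 had another sign than reported, all of them for Igf2r or Igfbp2. Of the same values, 15 moved by more than 0.083, the SD of a difference of 2 spots pooled over all brightnesses. Many of the 229 could not move. The filters on dim probes reused the same probes and scaled values, and probe means can change only Igf1 and Igfbp2. The series table holds nearly the same signal, so these counts overstate how much was checked. Leaving out a replicate could not be run with 1 array per label. No paired analysis was possible because each label has a single array of pooled RNA. Low signal limits Igf2, Igfbp2 and the dimmest Igf1 probe.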
